A study of Mus musculus with 9 samples.

Results

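The Polycomb complex core genes are 10 genes that encode the central subunits of the Polycomb repressive complexes: Ezh1, Ezh2, Eed, Suz12 and Jarid2 of Polycomb repressive complex 2 (PRC2), and Rnf2, Ring1, Bmi1, Pcgf1 and Pcgf6 of Polycomb repressive complex 1 (PRC1). They were chosen by gene symbol, with earlier results of these data known. All 10 of them were among the 20087 named genes of the table. All 10 also passed the filter on low values, which left 13343 genes for testing.

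Polyadenylated RNA was sequenced from mouse embryos of the B6D2F1 background at stage E2.75, around the morula stage, with 60 embryos pooled for each of the 9 libraries. Hdac1/2 cKD embryos had been injected as zygotes with siRNA against both Hdac1 and Hdac2, which encode closely related histone deacetylases. Sin3a KD embryos had received an siRNA that targets Sin3a, whose product holds together a corepressor complex with these deacetylases in it. NC embryos, whose genotype is given as wild type, had received a negative control siRNA. Each of the 3 groups had 3 libraries. An siRNA lowers a transcript without deleting its gene, and all groups, NC included, had been injected. The labels do not say whether the pools of a group were collected separately, so the p-values measure only the spread between these pools.

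PRC2 places methyl groups on lysine 27 of histone H3 (H3K27me3) through EZH1 or EZH2, with SUZ12 as the scaffold, EED as the subunit that reads the mark and stimulates the enzyme, and JARID2 as an accessory subunit that helps the complex to its sites. PRC1 places ubiquitin on lysine 119 of histone H2A through the ligases RING1 (RING1A) or RNF2 (RING1B), each paired with a PCGF subunit. BMI1 (PCGF4) marks canonical PRC1, whose CBX subunits bind H3K27me3, while PCGF1 and PCGF6 mark variant PRC1 complexes that reach their sites without that mark. In the mouse, H3K27me3 laid down in the oocyte keeps the maternal copy of a small group of genes silent in the preimplantation embryo.

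Values are normalised counts, which are gene-level read counts divided by normalisation factors. The library totals were 11.9 M to 13.5 M normalised counts, and the estimated depth was lowest in NC replicate 3, at 8.39 M reads, and highest in NC replicate 1, at 16.9 M reads. NC replicate 3 listed 28.4% of genes at 0 and stood apart on the first principal component (26.5% of the variance), at -96.6 against -16.8 and -20.7 for the other NC libraries. The targeted genes bore out the labels. Hdac1 averaged 943 ± 152 in Hdac1/2 cKD, 1910.4 ± 639 in Sin3a KD and 5569 ± 661 in NC embryos (SD, n = 3 each), so it was lower in Sin3a KD embryos too (log2 difference -1.59, limma adjusted p = 0.00297). Hdac2 averaged 305 ± 97.2 in Hdac1/2 cKD, 2060.1 ± 67.6 in Sin3a KD and 2286 ± 241 in NC embryos. Sin3a averaged 2044 ± 175 in Hdac1/2 cKD, 431 ± 83.6 in Sin3a KD and 1484 ± 283 in NC embryos. The summed level of 6 embryo markers (Pou5f1, Nanog, Sox2, Cdx2, Gata3 and Tfap2c) was 17773 to 20204 in Hdac1/2 cKD, 25251 to 26745 in Sin3a KD and 25810 to 27414 in NC libraries, with none of the 6 at 0 in any library. Pou5f1 made up most of each sum. All 6 had negative log2 differences in Hdac1/2 cKD against NC embryos, 4 with an adjusted p below 0.05, against 7.80% of tested genes. Cdx2 was at 15.0%, Gata3 at 50.8% and Tfap2c at 56.9% of the NC mean there. In Sin3a KD against NC embryos 1 of the 6, Nanog, was lower at that threshold, against 4.36% of tested genes. It was at 47.0% of its NC mean (limma adjusted p = 0.0194). The 9 oocyte markers summed to 594 to 614, 549 to 647 and 508 to 739, and the 5 cumulus cell markers in the table to 33.1 to 44.5, 31.5 to 53.2 and 7.41 to 23.1, again for Hdac1/2 cKD, Sin3a KD and NC libraries. The 6 two-cell stage markers in the table summed to 57.7 to 146, 55.0 to 72.5 and 32.8 to 91.9. These levels moved with the groups in part, and their part in the results below was not tested. In pooled embryos, fewer cells of a type and less RNA per cell cannot be told apart.

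In GENCODE vM21 on GRCm38 the PRC2 members lie at chr11:101191115-101226463 (Ezh1), chr6:47530139-47595341 (Ezh2), chr7:89954654-89980983 (Eed), chr11:79993106-80034123 (Suz12) and chr13:44729474-44921643 (Jarid2). The PRC1 members lie at chr1:151458004-151500955 (Rnf2), chr17:34020792-34024680 (Ring1), chr2:18677018-18686629 (Bmi1), chr6:83077869-83080855 (Pcgf1) and chr19:47033617-47050906 (Pcgf6). The promoters of Ezh2, Eed and Suz12 are shown because Eed and Ezh2 were the members that passed a test below, while Suz12, their scaffold partner, did not. The sequences come from RefSeq (GRCm38.p6), are placed by its annotated starts, run 5′ to 3′ on the strand of the gene, and have matches to the searched motifs in capitals. The RefSeq starts differ from the GENCODE gene ends for Ezh2, whose stretch lies inside the GENCODE gene, and for Eed, whose stretch overlaps its end:
Ezh2 (chr6:47595031-47595183, reverse strand): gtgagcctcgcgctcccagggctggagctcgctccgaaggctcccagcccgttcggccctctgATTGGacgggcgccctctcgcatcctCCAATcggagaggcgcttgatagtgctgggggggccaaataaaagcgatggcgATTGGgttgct
Eed (chr7:89980977-89981226, reverse strand): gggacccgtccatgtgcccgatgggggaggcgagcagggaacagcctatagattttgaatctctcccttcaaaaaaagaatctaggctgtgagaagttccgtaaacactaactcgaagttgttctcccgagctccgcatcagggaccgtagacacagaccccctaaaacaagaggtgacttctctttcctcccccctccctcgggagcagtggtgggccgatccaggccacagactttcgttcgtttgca
Suz12 (chr11:79992856-79993105, forward strand): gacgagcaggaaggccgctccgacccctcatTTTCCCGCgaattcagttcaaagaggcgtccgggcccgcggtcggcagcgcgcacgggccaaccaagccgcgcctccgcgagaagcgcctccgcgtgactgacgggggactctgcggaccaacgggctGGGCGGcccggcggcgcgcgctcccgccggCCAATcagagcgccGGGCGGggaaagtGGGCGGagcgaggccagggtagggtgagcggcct

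The Ezh2 stretch held 3 CCAAT boxes (CCAAT, or ATTGG on this strand), the Suz12 stretch held 1 CCAAT box, 3 GC boxes (GGGCGG) and 1 E2F-type motif (TTTCCCGC), and the Eed stretch held no match. Over the windows of 250 bases before to 50 after the start, on both strands and with overlapping matches counted, 9 of the 10 members were matched by symbol, with 10 windows because Jarid2 has a pair. Pcgf1 had no entry. Of the 10 windows, 5 held CCAAT and 7 held GGGCGG, against 37.4% and 35.7% of all 32851 windows. TTTCCCGC was found in 1 window (Suz12) and TTTGGCGC, another E2F-type motif, in 1 (Ezh2, beginning at base 4 after the start), against 1.07% and 0.514% of all windows. The NRF1 consensus and the ETS motif CCGGAAG were found in 0 of the 10, against 0.971% and 8.86% of all windows. The 10 windows held 17 (Eed) to 41 (Suz12) CG dinucleotides, against a median of 7 over all windows. Of all windows, 31.4% held at least as many as Eed and 3.46% at least as many as Suz12. These matches describe letters only.

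Per kilobase of merged exons, Suz12 and Jarid2 were the most abundant of the 10 in every group, and Ring1 and Ezh1 were the least abundant. Suz12 stood at 1945 ± 86.6 in Hdac1/2 cKD, 1928 ± 171 in Sin3a KD and 2244 ± 95.4 normalised counts per kilobase in NC embryos (SD, n = 3 each). Jarid2 followed at 1027 ± 108, 1250.2 ± 63.6 and 1195 ± 121 in the same groups. In NC embryos the order then ran through Eed (587 ± 75.8) and Ezh2 (532 ± 89.5), Rnf2 (335 ± 85.3) and Pcgf1 (316 ± 16.3), and Pcgf6 (177 ± 11.8), Bmi1 (172 ± 75.2), Ring1 (98.4 ± 37.6) and Ezh1 (79.6 ± 23.2). The libraries of Suz12 and Jarid2, of Jarid2 and Eed, of Ezh2 and Rnf2, and of Pcgf1 and Pcgf6 did not overlap in NC embryos, whereas those of every other pair of neighbours in this order overlapped. Ezh2, the methyltransferase of dividing cells, was thus far more abundant per kilobase than its relative Ezh1, and the ligase Rnf2 more than its relative Ring1. In Hdac1/2 cKD embryos Eed (448 ± 56.2), Rnf2 (445 ± 85.6) and Ezh2 (429 ± 32.9) could not be ordered, since their libraries overlapped. With the longest transcript as the length, Ezh2 ranked above Eed and Pcgf1 above Rnf2 in all 3 groups. On that length Ezh2 also came much closer to Jarid2, which still ranked above it. Ezh2 stood at 1029 ± 78.8 in Hdac1/2 cKD, 1414 ± 181 in Sin3a KD and 1276 ± 215 in NC embryos. Jarid2 stood at 1194 ± 126, 1454 ± 74.0 and 1390 ± 140 in the same groups.

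**Figure D1:**
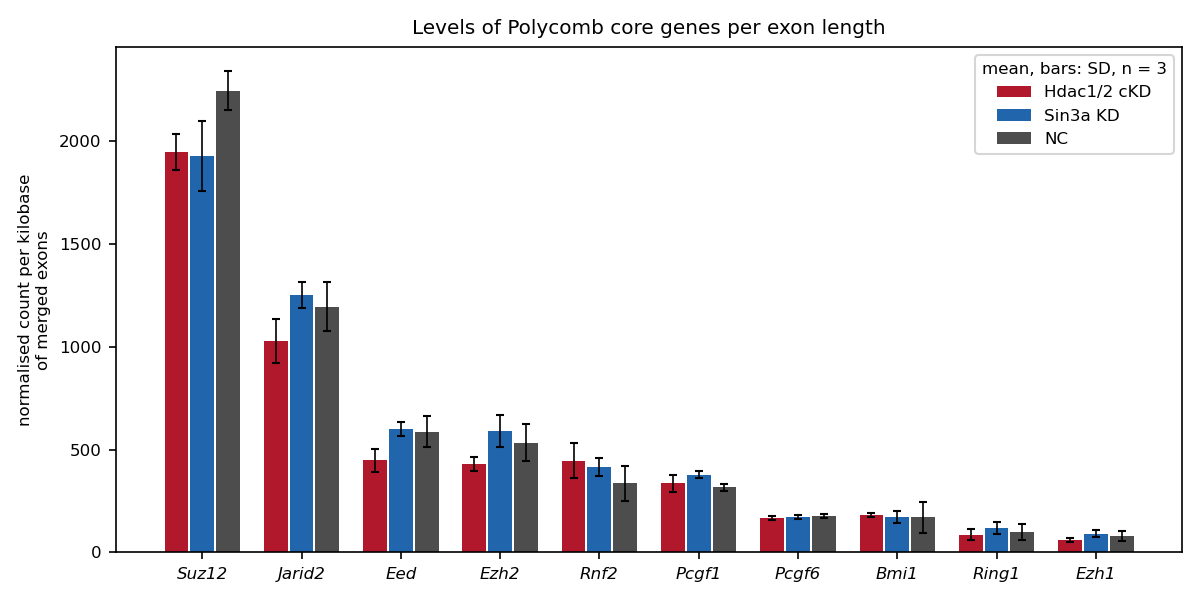
Level of each Polycomb core gene in normalised counts per kilobase of merged exons (y axis) in Hdac1/2 cKD, Sin3a KD and NC embryos, as the mean of 3 libraries with bars of 1 SD. The means of Suz12 and Jarid2 are at least 1027 in every group, while those of Ring1 and Ezh1 are at most 119.

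Hdac1/2 cKD against NC embryos asked whether depletion of both deacetylases changed the transcripts of the Polycomb machinery. Eed, the H3K27me3 reader of PRC2, was the only one of the 10 members to pass the test. It was lower, at 76.3% of its NC mean, and none of the 10 was called higher. Over all tested genes 15.6% were called, 7.80% lower and 7.81% higher, so 1 of 10 was close to the background. At an unadjusted p below 0.05, 1 member was higher and 4 were lower, against 29.6% of tested genes in either direction. All 5 PRC2 members had negative log2 differences, with a median of -0.30, against a median of 0.03 over all tested genes.

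Eed had 1736, 1918 and 1489 normalised counts in the Hdac1/2 cKD libraries, against 2171, 2002 and 2568 in the NC libraries (replicates 1 to 3). The groups did not overlap, with the lowest NC library just above the highest Hdac1/2 cKD library. The log2 difference was -0.39 (SE 0.12, limma adjusted p = 0.0481). The call was borderline: it was kept under 4 of 18 alternative settings, over which the adjusted p ran between 0.0283 and 0.193. It was lost without any one of NC replicates 1 and 3, Hdac1/2 cKD replicates 1 and 3 and the 3 Sin3a KD libraries, with adjusted p between 0.0593 and 0.193. Within sequencing lanes the log2 difference was -0.13 on lane 2 (2 libraries against 1) and -0.79 on lane 3 (1 against 1). Counting by strand is not stated, and 261 exon bases of Eed lie opposite exons of E230029C05Rik, a noncoding gene not analysed here. Likewise 174 exon bases of Ezh2 lie opposite Gm26625 and 178 of Suz12 opposite Gm26563, neither analysed here.

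Suz12, the PRC2 scaffold, had 9276, 10098 and 9478 in Hdac1/2 cKD libraries, against 10745, 11633 and 10911 in NC libraries. The groups did not overlap, but the log2 difference of -0.21 (SE 0.09, limma adjusted p = 0.130) did not pass the test. Eed and Suz12 were the 2 of 10 members whose groups did not overlap with Hdac1/2 cKD lower, against 16.0% of tested genes, and 0 of 10 did so with Hdac1/2 cKD higher, against 17.1%. Ezh2, the main methyltransferase, had 3118, 2707 and 2779 in Hdac1/2 cKD libraries, against 3512, 4175 and 2981 in NC libraries. Its groups overlapped through NC replicate 3. Its log2 difference of -0.30 (SE 0.13) missed the threshold at an adjusted p of 0.145, and without NC replicate 3 it was -0.42 with an adjusted p of 0.0414. Ezh1, the relative that works in cells that divide little, had 447, 508 and 361 in Hdac1/2 cKD libraries, against 404, 629.6 and 743 in NC libraries. The NC libraries were spread more widely than the groups differed. Jarid2, the accessory subunit, had 9525, 11176 and 9221 in Hdac1/2 cKD libraries, against 12752, 11672 and 10409 in NC libraries. The highest Hdac1/2 cKD library lay above the lowest NC library. The log2 differences of Ezh1 and Jarid2 were -0.40 and -0.22, with adjusted p of 0.258 and 0.161.

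**Figure D2:**
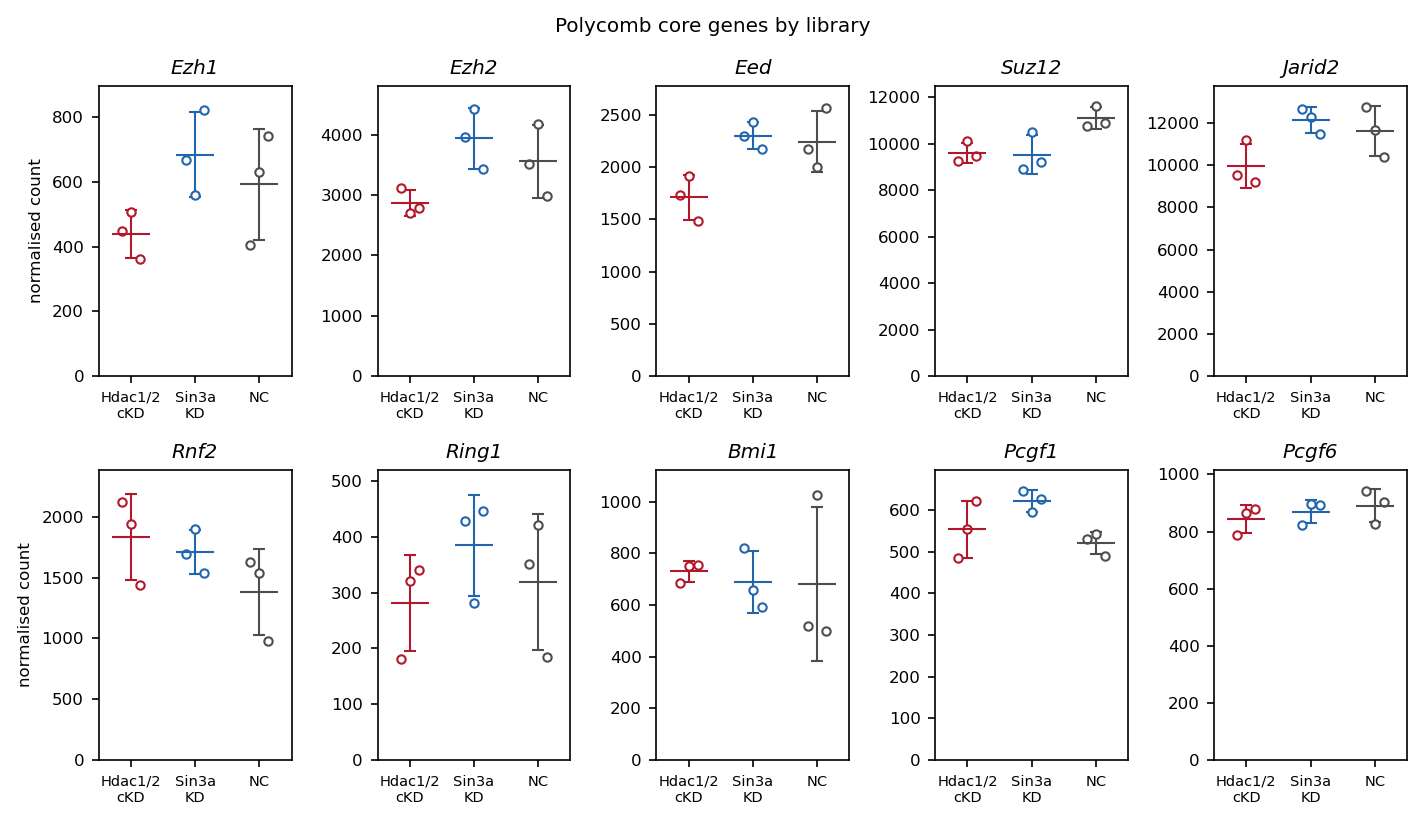
Normalised counts (y axes from 0) of the 10 Polycomb core genes in each library of Hdac1/2 cKD, Sin3a KD and NC embryos. Points are libraries, the long line is the mean of 3 and the bars are 1 SD. The Hdac1/2 cKD points of Eed lie below all points of the other groups, and those of Rnf2 reach above the NC points.

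Among the PRC1 members none passed the test in Hdac1/2 cKD embryos. Rnf2, the main ligase, had 2126, 1942 and 1443 in Hdac1/2 cKD libraries, against 1628, 1540.4 and 979 in NC libraries. Both Hdac1/2 cKD replicates 1 and 2 lay above every NC library, while replicate 3 lay below NC replicates 1 and 2. The log2 difference was 0.43 (95% interval 0.01 to 0.84, adjusted p = 0.158), and with lane as a factor or with the replicate number as a block the adjusted p was 0.0496 and 0.0380. Of the Rnf2 exons, 158 bases lie opposite exons of Trmt1l, a protein-coding gene. Bmi1, the PCGF subunit of canonical PRC1, had 685, 752 and 755 in Hdac1/2 cKD libraries, against 519, 1027 and 500.4 in NC libraries. NC replicate 2 stood far above the other NC libraries. The log2 difference of Bmi1 was 0.18 (95% interval -0.33 to 0.69), and without NC replicate 2 it was 0.52 with an adjusted p of 0.0474. Ring1, the second ligase, ranged from 182 to 341 in Hdac1/2 cKD and from 184 to 421 in NC libraries, with a log2 difference of -0.15 (95% interval -0.85 to 0.55). Pcgf1, the subunit of the KDM2B-containing variant complex, ranged from 486 to 623 and from 490.5 to 542 in the same groups, with a log2 difference of 0.08 (95% interval -0.22 to 0.39). Pcgf6, the subunit of the variant complex with MGA and E2F6, ranged from 789 to 878 in Hdac1/2 cKD and from 826 to 942 in NC libraries, with a log2 difference of -0.08 (95% interval -0.34 to 0.18). The interval of Pcgf6 was thus narrow, whereas that of Ring1 allowed large differences in either direction.

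Sin3a KD against NC embryos asked the same of the loss of the Sin3a scaffold. None of the 10 members was called higher and none lower, while 7.96% of tested genes were called, 3.60% higher and 4.36% lower. At an unadjusted p below 0.05 the members counted 0 higher and 1 lower, which was Suz12, against 23.9% of tested genes in either direction. Suz12 had 8895, 10493 and 9214 in the Sin3a KD libraries, against 10745, 11633 and 10911 in the NC libraries. The groups did not overlap, and the log2 difference of -0.22 (SE 0.09, limma adjusted p = 0.138) was the closest of the 10 to the threshold. Pcgf1 had 647, 595 and 626 in Sin3a KD libraries, against 531, 542 and 490.5 in NC libraries. Every Sin3a KD library of Pcgf1 lay above every NC library, with a log2 difference of 0.26 (SE 0.14, adjusted p = 0.295). Suz12 was thus the 1 of 10 that did not overlap with Sin3a KD lower and Pcgf1 the 1 of 10 with Sin3a KD higher, against 13.3% and 13.9% of tested genes. The other members overlapped between Sin3a KD and NC embryos, and the median log2 difference of the 10 was 0.12. Eed averaged 2302 ± 131 in Sin3a KD and 2247 ± 290.2 in NC embryos (SD, n = 3 each), with a log2 difference of 0.04 (95% interval -0.23 to 0.31). Ezh2 averaged 3941 ± 504 and 3556 ± 598 in the same groups, with a log2 difference of 0.15 (95% interval -0.13 to 0.44). Rnf2 averaged 1712 ± 183 in Sin3a KD and 1383 ± 352 in NC embryos, a log2 difference of 0.34 (95% interval -0.08 to 0.75).

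Hdac1/2 cKD against Sin3a KD embryos compared the siRNA treatments with each other without the NC means. The PRC2 subunits Eed and Ezh2 were lower in Hdac1/2 cKD embryos, which makes 2 of 10 members called lower and 0 of 10 higher, against 8.78% and 8.49% of tested genes (17.3% in either direction). At an unadjusted p below 0.05, 4 members were lower and 0 higher, against 30.3% of tested genes in either direction. Ezh1, Ezh2, Eed and Jarid2 did not overlap between the groups, with Hdac1/2 cKD lower, so 4 of 10 stood apart in that direction against 19.3% of tested genes, and 0 of 10 in the other against 20.4%. The fifth PRC2 member, Suz12, had a log2 difference of 0.02 (95% interval -0.17 to 0.20).

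Eed had 1736, 1918 and 1489 in the Hdac1/2 cKD libraries, against 2295, 2436 and 2175 in the Sin3a KD libraries. The log2 difference was -0.43 (SE 0.12, limma adjusted p = 0.0284), and the 3 Hdac1/2 cKD libraries were all below the lowest Sin3a KD library. Ezh2 had 3118, 2707 and 2779 in the Hdac1/2 cKD libraries, against 3965, 4433 and 3425 in the Sin3a KD libraries. The log2 difference was -0.45 (SE 0.13, limma adjusted p = 0.0297), again with every Hdac1/2 cKD library below every Sin3a KD library. On lane 3, which held 1 Hdac1/2 cKD and 2 Sin3a KD libraries, the log2 differences were -0.63 for Eed and -0.49 for Ezh2. Each of these calls was kept under 11 of 18 alternative settings. With lane in the model the log2 differences were -0.44 for Eed and -0.61 for Ezh2, with adjusted p of 0.175 and 0.0608. Eed lost it without Hdac1/2 cKD replicates 1 or 3 or Sin3a KD replicates 1 or 2 (adjusted p between 0.0705 and 0.126), and Ezh2 without Hdac1/2 cKD replicates 2 or 3 or Sin3a KD replicates 1 or 2 (between 0.0880 and 0.117).

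Ezh1 had 447, 508 and 361 in Hdac1/2 cKD libraries, against 668, 561 and 822 in Sin3a KD libraries. Its log2 difference of -0.64 was the largest in size of the 10 but came with an SE of 0.22 and an adjusted p of 0.0700. Without NC replicate 1 or NC replicate 3, which enter only the shared estimate of the spread, the adjusted p of Ezh1 was 0.0305 and 0.0415. Jarid2 had 9525, 11176 and 9221 in Hdac1/2 cKD libraries, against 12675, 12296 and 11466 in Sin3a KD libraries. Its log2 difference was -0.29 (SE 0.10, adjusted p = 0.0642), and the adjusted p was 0.0365 without NC replicate 3 and 0.0430 without Hdac1/2 cKD replicate 2. None of the 5 PRC1 members passed, with adjusted p of 0.361 (Ring1) or above. Ring1 averaged 281 ± 86.7 in Hdac1/2 cKD and 385 ± 90.6 in Sin3a KD embryos, and Rnf2 averaged 1837 ± 353 and 1712 ± 183 (SD, n = 3 each). The plot of differences with their intervals shows the PRC2 members to the left of 0 wherever Hdac1/2 cKD embryos were compared, except Suz12 against Sin3a KD embryos.

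**Figure D3:**
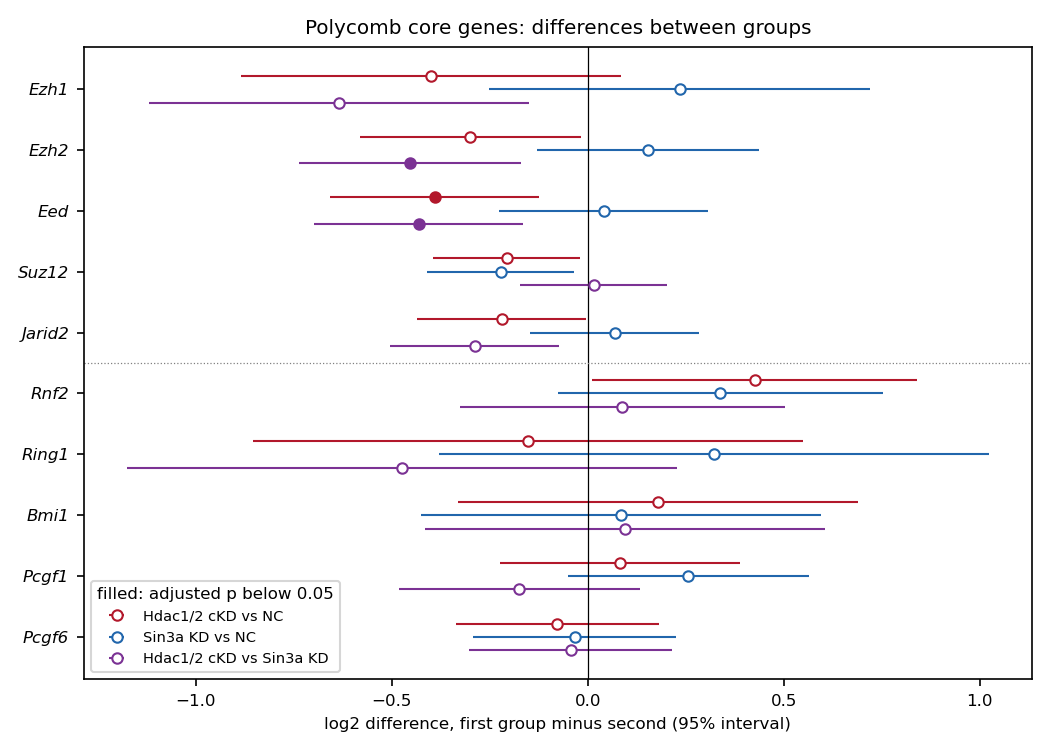
Log2 differences (x axis) of the 10 Polycomb core genes in the 3 comparisons, first group minus second, with 95% intervals. Filled points had an adjusted p below 0.05: Eed in Hdac1/2 cKD against NC embryos, and Eed and Ezh2 in Hdac1/2 cKD against Sin3a KD embryos.

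Ratios between alternative subunits were taken within a library, on the log2(value + 1) scale, where a scaling common to all genes of a library enters only through the added 1. The log2 ratio of Ezh2 to Ezh1 was 2.72 ± 0.27 in Hdac1/2 cKD, 2.54 ± 0.46 in Sin3a KD and 2.62 ± 0.56 in NC embryos (SD, n = 3 each). The log2 ratio of Rnf2 to Ring1 was 2.74 ± 0.74, 2.17 ± 0.51 and 2.16 ± 0.27 in the same groups, and that of Bmi1 to Pcgf1 was 0.40 ± 0.11, 0.14 ± 0.21 and 0.31 ± 0.53. These ratios are of normalised counts and not per length. No ratio separated any pair of groups, and the exact two-sided permutation p-values of the 9 tests lay between 0.2 and 1, all 1 after Benjamini-Hochberg adjustment. With 3 libraries against 3 the smallest p such a test can give is 0.1, so these tests could not pass 0.05. The balance of Ezh2 to Ezh1 in single libraries ran from 5.33 to 7.70 in Hdac1/2 cKD, 4.17 to 7.91 in Sin3a KD and 4.01 to 8.69 in NC embryos.

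The members differed in how closely the libraries of a group agreed. In NC embryos the coefficient of variation was 43.8% for Bmi1, 38.2% for Ring1, 29.1% for Ezh1 and 25.5% for Rnf2, against 4.25% for Suz12, 5.17% for Pcgf1 and 6.63% for Pcgf6. Among Hdac1/2 cKD libraries Ring1 (30.8%) was the most variable and Suz12 (4.45%) the least. Bmi1 has a near copy, Gm5946, with 97.0% identity over 2660 bases, which had at most 9.11 normalised counts in any library. A pseudogene 97.5% identical to Pcgf1 over 764 bases, Gm8930, was not analysed here, and reads that fit both cannot be told apart.

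The genes whose log2 values were most like those of Eed over the 9 libraries were Scp2 (Pearson r 0.97), Eif3j2 (0.95) and Mettl18 (0.95), out of 9757 genes with a mean of at least 50. Those most like Rnf2 were Cgn (0.95), Dmpk (0.94) and Pcsk7 (0.94). The 9 libraries share groups, lanes and scaling, so these values are descriptions. Scp2 averaged 772 ± 128 in Hdac1/2 cKD, 1446 ± 116 in Sin3a KD and 1390 ± 171 in NC embryos (SD, n = 3 each).

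The 41 other Polycomb genes were examined in 4 lists, also chosen with earlier results of these data known, and 40 passed the filter. In Hdac1/2 cKD against NC embryos 11 of the 40 were higher and 3 lower, against 7.81% and 7.80% of all tested genes. Among those called higher, Phf19 and Scml2 met the filter on low values only through knockdown libraries. In Sin3a KD against NC embryos 7 were higher and 1 lower, against 3.60% and 4.36%, and in Hdac1/2 cKD against Sin3a KD embryos 7 were higher and 4 lower, against 8.49% and 8.78%. The partners of canonical PRC1 are the CBX readers of H3K27me3 and the PCGF, PHC and SCM subunits that go with them. Of these 11 genes 4 were higher and 0 lower in Hdac1/2 cKD against NC embryos, against the same 7.81% and 7.80% of tested genes. Their median log2 difference was 0.75 with 10 of 11 above 0, against a median of 0.03 over all tested genes, and at an unadjusted p below 0.05 the counts were 5 and 0, against 29.6% in either direction. The comparisons with NC embryos share the NC libraries, so their counts are not independent of each other.

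Cbx2, a CBX subunit that also compacts chromatin, had 554, 523 and 485 in Hdac1/2 cKD libraries, against 138, 143 and 97.1 in NC libraries. The groups were far apart, and the log2 difference was 2.06 (SE 0.23, limma adjusted p = 9.74e-05). Cbx2 was also higher in Hdac1/2 cKD than in Sin3a KD embryos, which had 197, 125 and 160.4 (log2 difference 1.71, SE 0.23, adjusted p = 0.000311). Pcgf2 (MEL18), the relative of Bmi1 in canonical PRC1, had 356, 399 and 365 in Hdac1/2 cKD libraries, against 55.5, 103 and 39.0 in NC libraries. Its log2 difference was 2.60 (SE 0.32, adjusted p = 0.000174), and no library overlapped. In the same comparison the log2 difference of Bmi1 was 0.18. Pcgf2 averaged 373 ± 22.9 in Hdac1/2 cKD, 147 ± 30.2 in Sin3a KD and 65.9 ± 33.3 normalised counts in NC embryos (SD, n = 3 each). Cbx6, another CBX subunit, had 639.7, 636 and 576 in Hdac1/2 cKD libraries, against 223, 198 and 189 in NC libraries. All Hdac1/2 cKD libraries of Cbx6 were above all NC libraries, with a log2 difference of 1.60 (SE 0.22, adjusted p = 0.000407). The calls of Cbx2, Pcgf2 and Cbx6 in Hdac1/2 cKD against NC embryos were kept under all 18 alternative settings. Scml2, an SCM subunit, was low throughout, with 10.4, 21.5 and 35.5 in Hdac1/2 cKD libraries, against 4.17, 2.71 and 0 in NC libraries. It passed the test at an adjusted p of 0.0417, lost it under 11 of 17 settings, and no fold is given at such levels. The losses of Scml2 included leaving out NC replicate 3, any Hdac1/2 cKD library, or Sin3a KD replicates 1 or 2 (adjusted p between 0.0503 and 0.168). No NC library of Scml2 reached 10, so it too met the filter only through knockdown libraries and could be counted only if raised there.

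In Sin3a KD against NC embryos Pcgf2 (log2 difference 1.24, adjusted p = 0.0295) and Cbx6 (0.88, adjusted p = 0.0253) were higher and Scmh1, an SCM subunit, was lower (-1.10, adjusted p = 0.0221). Scmh1 had 146, 97.3 and 129 in Sin3a KD libraries, against 227, 213 and 379.9 in NC libraries. Scmh1 was higher in Hdac1/2 cKD embryos (398, 273 and 303) than in Sin3a KD embryos, with a log2 difference of 1.38 (SE 0.26, adjusted p = 0.00294). These Sin3a KD calls against NC embryos were less firm: with lane in the model, 2 of the 40 other Polycomb genes were called higher and 0 lower. Pcgf2 lost its call without NC replicates 1 or 3 or Sin3a KD replicates 1 or 3 (adjusted p between 0.0750 and 0.126), and Cbx6 without NC replicate 3 (0.0609) or Sin3a KD replicate 3 (0.102). Scmh1 lost it without NC replicate 3 or Sin3a KD replicates 2 or 3 (between 0.0675 and 0.0716). Pcgf2 and Cbx6 were higher in Hdac1/2 cKD than in Sin3a KD embryos as well, with log2 differences of 1.35 (adjusted p = 0.00963, and 0.245 with lane in the model) and 0.71 (adjusted p = 0.0366). The call of Cbx6 was lost without any one of the 3 Hdac1/2 cKD libraries or of Sin3a KD replicates 1 and 2 (adjusted p between 0.0698 and 0.152).

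**Figure D4:**
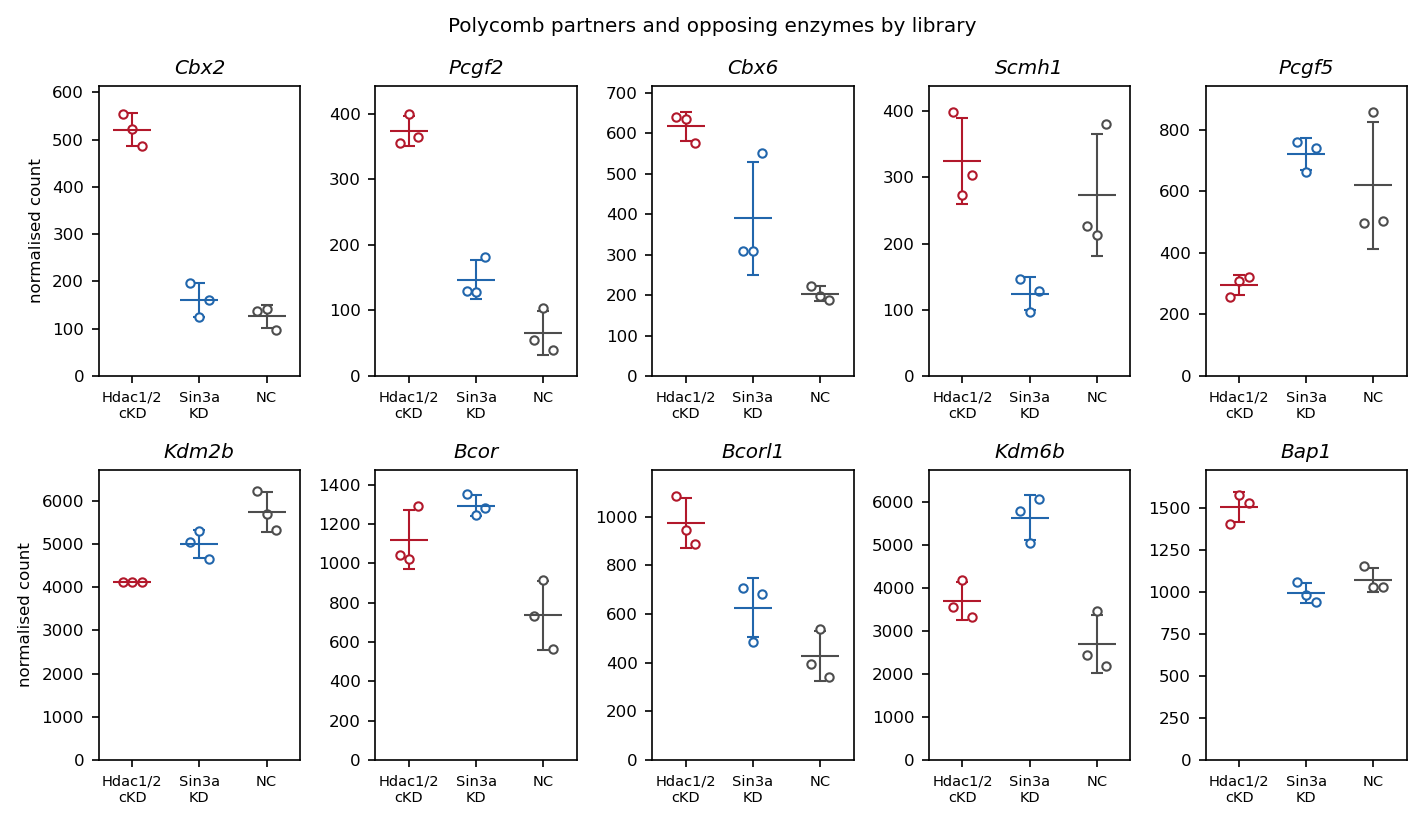
Normalised counts (y axes from 0) by library of 10 Polycomb partners and opposing enzymes in Hdac1/2 cKD, Sin3a KD and NC embryos, with the mean of 3 (long line) and 1 SD (bars). Cbx2, Pcgf2 and Cbx6 lie highest in Hdac1/2 cKD embryos, Pcgf5 lies lowest there, and Kdm6b lies highest in Sin3a KD embryos.

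Of the 10 PRC2 partners, 2 were higher and 0 lower in Hdac1/2 cKD against NC embryos (3 and 1 at an unadjusted p below 0.05). These counts were close to the 15.6% of tested genes called and the 29.6% with an unadjusted p below 0.05 in either direction. E130012A19Rik (Epop), a PRC2 subunit known from mouse embryonic stem cells, had 1351, 1261 and 1417 in Hdac1/2 cKD libraries, against 800.2, 955 and 872 in NC libraries. The groups did not overlap, with a log2 difference of 0.62 (SE 0.15, adjusted p = 0.0125), which without Hdac1/2 cKD replicate 3 had an adjusted p of 0.0524. In Sin3a KD embryos E130012A19Rik stood at 1838, 1222 and 1657, also above all NC libraries (log2 difference 0.83, SE 0.15, adjusted p = 0.00621). That call was kept under 15 of 18 settings, with an adjusted p of 0.118 with lane in the model. Phf19, a Polycomb-like subunit, had 23.3, 46.0 and 43.9 in Hdac1/2 cKD libraries, against 5.41, 3.22 and 0 in NC libraries. Phf19 passed at an adjusted p of 0.0126, and without Hdac1/2 cKD replicates 2 or 3 the adjusted p was 0.0630 and 0.0609. No NC library of Phf19 reached 10, so it met the filter only through knockdown libraries and could be counted only if raised there. AU022751 (Ezhip), an inhibitor of PRC2, was higher in Sin3a KD embryos, at 432 ± 132 against 169.7 ± 42.5 in NC embryos (SD, n = 3 each). Its log2 difference was 1.32 (SE 0.31, adjusted p = 0.0217), with adjusted p between 0.0791 and 0.105 without NC replicate 1 or Sin3a KD replicates 1 or 3. Aebp2, the partner of JARID2 in its form of PRC2, was lower in Hdac1/2 cKD than in Sin3a KD embryos, at 5517 ± 365 against 7122 ± 435 (SD, n = 3 each). The log2 difference of Aebp2 was -0.37 (SE 0.10, adjusted p = 0.0193), with adjusted p between 0.0755 and 0.0783 without Hdac1/2 cKD replicates 2 or 3 or Sin3a KD replicate 3.

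Of the 13 variant PRC1 partners, 4 were higher and 2 lower in Hdac1/2 cKD against NC embryos, against 7.81% and 7.80% of tested genes. Pcgf5, the PCGF subunit of another variant complex, had 257, 307 and 322 in Hdac1/2 cKD libraries, against 497, 858 and 502 in NC libraries. Every Hdac1/2 cKD library was below every NC library, with a log2 difference of -1.02 (SE 0.20, adjusted p = 0.00451). Against the 761, 663 and 741 of Sin3a KD libraries the log2 difference of Pcgf5 was -1.29 (SE 0.20, adjusted p = 0.000846), and both calls were kept under all 18 settings. Kdm2b, the CpG-binding subunit that goes with PCGF1, had 4125, 4105 and 4105 in Hdac1/2 cKD libraries, against 6221, 5697 and 5308 in NC libraries. The Hdac1/2 cKD libraries of Kdm2b were nearly equal and lay below all NC libraries, with a log2 difference of -0.48 (SE 0.09, adjusted p = 0.00358). Bcor and Bcorl1, the alternative corepressor subunits of the PCGF1 complex, were both higher. Bcorl1 averaged 973 ± 102 in Hdac1/2 cKD and 426 ± 102 in NC embryos (SD, n = 3 each; log2 difference 1.21, SE 0.19, adjusted p = 0.00110). Bcor averaged 1119 ± 149.7 and 736 ± 176 in the same groups (log2 difference 0.62, adjusted p = 0.0206). Without NC replicate 3 or Hdac1/2 cKD replicate 3 the adjusted p of Bcor was 0.0599 and 0.0967. Mga, the scaffold of the PCGF6 complex, averaged 4124 ± 539 in Hdac1/2 cKD and 2703 ± 638 in NC embryos (SD, n = 3 each). Its log2 difference was 0.63 (adjusted p = 0.0148), with adjusted p of 0.0561 and 0.0678 without Hdac1/2 cKD replicates 1 and 2. Yaf2, the relative of the variant subunit RYBP, averaged 271 ± 31.2 in Hdac1/2 cKD and 162 ± 36.6 in NC embryos. The call of Yaf2 (log2 difference 0.75, adjusted p = 0.0351) was lost without any one Hdac1/2 cKD library or NC replicates 1 or 2 (adjusted p between 0.0530 and 0.133).

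Bcor was the only variant PRC1 partner called in Sin3a KD against NC embryos, which makes 1 of 13 against 7.96% of tested genes. It averaged 1293 ± 53.6 and 736 ± 176 in these groups (SD, n = 3 each). The log2 difference was 0.84 (SE 0.16, adjusted p = 0.00956), and with lane in the model the adjusted p was 0.109. In Hdac1/2 cKD against Sin3a KD embryos Bcorl1 and Yaf2 were higher and Pcgf5 and Dcaf7, a WD-repeat partner of the PCGF3 and PCGF5 complexes, were lower. Dcaf7 had 831, 933 and 884 in Hdac1/2 cKD libraries, against 1235, 1193 and 1448 in Sin3a KD libraries. The groups stood apart, with a log2 difference of -0.55 (SE 0.13, adjusted p = 0.00923, and 0.120 with lane in the model). The calls of Bcorl1 (0.65, adjusted p = 0.0320) and Yaf2 (0.70, adjusted p = 0.0441) were kept under 10 and 8 of 18 settings. Bcorl1 lost it without any one Hdac1/2 cKD library or Sin3a KD replicates 2 or 3 (adjusted p between 0.0504 and 0.132), and Yaf2 without any one library of either group (between 0.0771 and 0.151).

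Of 6 tested enzymes that take Polycomb marks away, 1 was higher and 1 lower in Hdac1/2 cKD against NC embryos, and 1 was higher and 0 lower in Sin3a KD against NC embryos (1 and 0 at an unadjusted p below 0.05). At an unadjusted p below 0.05, 2 were higher and 1 lower in Hdac1/2 cKD against NC embryos. Over all tested genes 15.6% and 7.96% were called in these comparisons, and 29.6% and 23.9% had an unadjusted p below 0.05. With only 6 genes tested, the counts are too small to compare with these shares. Kdm6b (JMJD3), a demethylase of H3K27me3, had 5772, 5048 and 6059 in Sin3a KD libraries, against 2445, 3451 and 2187 in NC libraries. The groups did not overlap, with a log2 difference of 1.09 (SE 0.15, adjusted p = 0.00297). That call was kept under 16 of 18 settings, over which the adjusted p reached 0.0677. Kdm6b had 3543, 4188 and 3331 in Hdac1/2 cKD libraries, which overlapped with NC libraries (log2 difference 0.47, adjusted p = 0.0522). Leaving out NC replicate 2 gave 0.67 with an adjusted p of 0.00364. Kdm6b was lower in Hdac1/2 cKD than in Sin3a KD embryos (-0.61, adjusted p = 0.0147), with adjusted p between 0.0551 and 0.0625 without Hdac1/2 cKD replicates 1 or 3 or Sin3a KD replicates 1 or 3. Bap1, the deubiquitinase of H2A, had 1405, 1580.0 and 1533 in Hdac1/2 cKD libraries, against 1154, 1030.3 and 1028 in NC libraries. All Hdac1/2 cKD libraries were higher, with log2 differences of 0.49 against NC (SE 0.11, adjusted p = 0.0105) and 0.60 against Sin3a KD embryos (SE 0.11, adjusted p = 0.00284). Without Hdac1/2 cKD replicate 2 the adjusted p against NC was 0.0547. Usp16, another H2A deubiquitinase, averaged 2179.6 ± 81.6 in Hdac1/2 cKD and 2954 ± 398 in NC embryos (SD, n = 3 each). The call of Usp16 (-0.43, adjusted p = 0.0325) was lost without any one Hdac1/2 cKD library or NC replicates 2 or 3 (adjusted p between 0.0505 and 0.106).

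**Figure D5:**
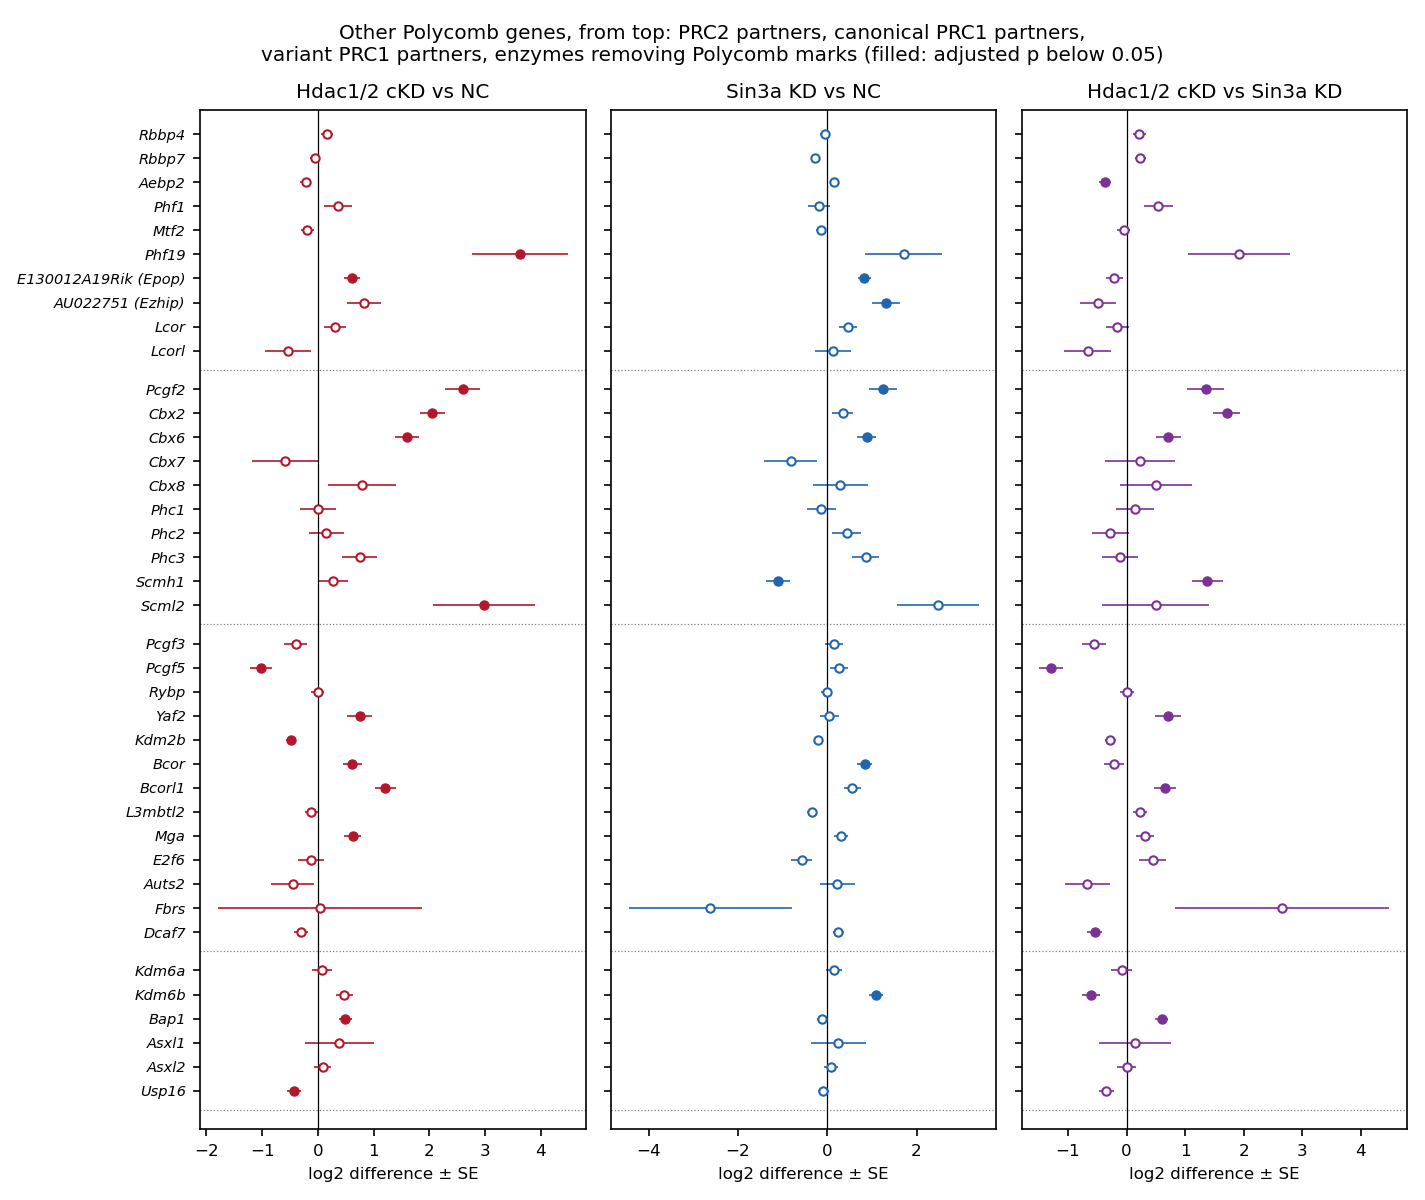
Log2 differences (x axes, bars of 1 SE) of 39 other Polycomb genes in the 3 comparisons, first group minus second, grouped from the top as PRC2 partners, canonical PRC1 partners, variant PRC1 partners and enzymes removing Polycomb marks. Filled points had an adjusted p below 0.05, and 11 of them lie above 0 in Hdac1/2 cKD against NC embryos, Cbx2 and Pcgf2 among them.

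Genes known as Polycomb targets in other cells were called in both directions. Of 29 such genes, 16 were tested, and in Hdac1/2 cKD against NC embryos 2 were higher and 3 lower, against 7.81% and 7.80% of tested genes. Their median log2 difference was 0.02, against 0.03 over all tested genes. Cdkn2a, the tumour suppressor locus that BMI1 silences, had 146, 178 and 222 in Hdac1/2 cKD libraries, against 39.9, 53.8 and 19.2 in NC libraries. The groups were far apart, with a log2 difference of 2.34 (SE 0.39, adjusted p = 0.00153), and the call was kept under all 18 settings. Hoxd11, a homeobox gene, had 75.0, 102 and 88.7 in Hdac1/2 cKD libraries, against 38.5, 5.21 and 21.0 in NC libraries. Its log2 difference was 2.34 (SE 0.57, adjusted p = 0.0138), with an adjusted p of 0.0571 without Hdac1/2 cKD replicate 2. The lower ones were the primitive endoderm factors Gata6 (5497 ± 448 in Hdac1/2 cKD and 7506 ± 731 in NC embryos; adjusted p = 0.0121) and Gata4 (331 ± 83.7 and 572 ± 116; adjusted p = 0.0314), and the eye and brain factor Pax6 (101 ± 59.7 and 245 ± 70.7; adjusted p = 0.0405; SD, n = 3 each). Gata6 had an adjusted p of 0.0623 without Hdac1/2 cKD replicate 1, Gata4 of 0.0829 to 0.134 without NC replicates 1 or 3 or Hdac1/2 cKD replicates 2 or 3, and Pax6 of 0.0564 to 0.148 without any NC library, Hdac1/2 cKD replicates 2 or 3 or Sin3a KD replicate 2. In Sin3a KD against NC embryos 0 were higher and 0 lower by limma, against 7.96% of tested genes called in either direction. At an unadjusted p below 0.05 the counts were 0 and 1, against 23.9% in either direction. The lowest adjusted p was 0.0724 for Gata4, which was 0.0324 without NC replicate 2.

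Of 5 genes imprinted through maternal H3K27me3, 4 were called in Hdac1/2 cKD against NC embryos, against 15.6% of tested genes: Sfmbt2 (log2 difference 2.67, adjusted p = 2.21e-05), Slc38a4 (1.22, adjusted p = 0.000971) and Jade1 (0.98, adjusted p = 0.00126) were higher, also under all 18 settings, and Gab1 was lower (-0.57, adjusted p = 0.0265, and 0.0648 to 0.111 without NC replicates 1 or 3 or Hdac1/2 cKD replicates 1 or 2). In Sin3a KD against NC embryos Sfmbt2 was called, as higher (1.48, adjusted p = 0.00495), against 7.96% of tested genes, and Jade1 had an adjusted p of 0.0890, which was 0.0304 without NC replicate 2. With only 5 genes, chosen with earlier results of these data known, these counts too are too small to compare with the shares.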

How the data were processed

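The authors deposited 1 table of signal values, which are gene-level read counts from Salmon divided by DESeq2 normalisation factors, on build GRCm38, per the submitters' processing notes; the sources used here do not give tool versions, annotation or strand setting. Whole reads could not be recovered: 54.0% to 67.9% of values under 20 lay within 0.1 of a whole multiple of the step of a library. Depth (8.39 M to 16.9 M reads) was estimated from that step, as if the same factor held for all genes of a library, which is not established. Per the labels, RNA of 2 fluorescent proteins had been spiked into the samples; these were not used here, so total RNA per embryo was not measured. The line without a name held at most 0.00896% of a library and was left out.

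Genes had to reach 10 in 3 or more libraries, and limma 3.58.1 under R 4.3.3 was fitted to log2(value + 1), a scale on which differences of weakly expressed genes come out too small (trend and robust moderated variances, 1 mean per group over all 9 libraries, 6 residual degrees of freedom). Every adjusted p is from limma, Benjamini-Hochberg adjusted across the 13343 genes tested, and genes below 0.05 were called. Ratios were compared with exact permutation tests. Lanes were read from the sample descriptions, and positions, exon lengths and overlaps from GENCODE vM21. The fit was tested on simulated data. The members, lists and tests were chosen with earlier results of these data known. Named beside the members were the knockdown targets, imprinted genes (in brief), per list and comparison, up to 6 called genes with the lowest adjusted p, and, for the member with the lowest adjusted p in PRC2 and in PRC1, the 3 genes most correlated with it. The 18 alternatives were a pseudocount of 5, no filter, a mean of at least 50, equal library totals, moderation without trend and robust variances, lane as a factor, leaving out the 2 libraries alone on their lanes, a replicate block, only the 6 libraries compared, and each library left out in turn. Of the listed genes, 1 enters the counts but is not reported here.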

Additional observations from a re-analysis of the deposited data

Results flagged for a closer look

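Eed differed between the siRNA treatments themselves: the log2 difference of Hdac1/2 cKD against Sin3a KD embryos was -0.43, with every Hdac1/2 cKD library lower. Ezh2 did likewise, with a log2 difference of -0.45. These 2 of 10 members called lower stand against 8.78% of tested genes, and 17.3% in either direction. Groups that did not overlap, with Hdac1/2 cKD lower, were found for 19.3% of tested genes. With lane in the model the log2 differences were -0.44 for Eed and -0.61 for Ezh2, no smaller in size than without it. The limma adjusted p was then 0.175 for Eed and 0.0608 for Ezh2, so neither call was kept. That model fits the 2 libraries alone on their lanes exactly, so they do not inform the group differences.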

How the results depend on the processing

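Directions below are for the first group against the second, and for each value that moved or turned the cause was not tested unless stated. Scaling to equal totals shifted the median log2 difference of all genes by 0.11 (Hdac1/2 cKD against NC) and 0.09 (Sin3a KD against NC). In Hdac1/2 cKD against NC embryos, genes called lower numbered 675 with equal totals, 600 when the moderation used neither trend nor robust variances, 657 once lane entered as a factor and 574 on leaving out NC replicate 1 and Sin3a KD replicate 1, the 2 libraries with a lane to themselves, against 1041. Members called lower were 0 with no filter, equal totals, the other moderation, lane, without those 2 libraries, with the replicate block and with only the 6 libraries compared, and members called higher were 1 with lane and 1 with the block. Other Polycomb genes called higher were 7 with the other moderation.

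In Sin3a KD against NC embryos, genes called higher numbered 741 with equal totals, 17 with the other moderation, 61 with lane, 26 without the 2 libraries and 277 with only 6 libraries, against 480. Genes called lower numbered 19, 33, 25 and 334 under the last 4 of these, against 582. Other Polycomb genes called higher were 0, 2, 0 and 4 under the same 4, against 7, and those called lower were 0 under each.

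Between Hdac1/2 cKD and Sin3a KD embryos, genes called higher numbered 450 with lane and 722 without the 2 libraries, against 1133, and genes called lower 775 with the other moderation, 552 with lane and 662 without the 2 libraries, against 1171. Members called lower were 0 under each of these 3 and 4 with only 6 libraries. Other Polycomb genes called higher were 3 with lane and 3 without the 2 libraries, and those called lower were 2 with the other moderation, 7 with the block and 7 with only 6 libraries.

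Leaving out 1 library at a time gave 608 to 1114 genes higher and 640 to 1056 lower in Hdac1/2 cKD against NC embryos, with 0 to 1 members higher, 0 to 1 lower, 6 to 11 other Polycomb genes higher and 2 to 3 lower. In Sin3a KD against NC embryos it gave 121 to 742 genes higher, 211 to 796 lower, 0 members either way, 3 to 8 other Polycomb genes higher and 0 to 2 lower. For Hdac1/2 cKD against Sin3a KD embryos it gave 712 to 1369 higher, 684 to 1379 lower, 0 members higher, 0 to 4 lower, 4 to 7 other Polycomb genes higher and 2 to 6 lower.

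Differences that passed no test turned sign as follows. With lane, the log2 difference against Sin3a KD embryos was -0.071 for Suz12, -0.29 for Rnf2, -0.041 for Bmi1, 0.033 for AU022751, 0.22 for Gata4 and -0.066 for Scml2. Against NC embryos with lane, that of Bmi1 was -0.042 in Hdac1/2 cKD and -0.0012 in Sin3a KD embryos, and that of Yaf2 was -0.31 in Sin3a KD embryos. Without the 2 libraries, Sin3a KD against NC was -0.010 for Ezh1, -0.20 for Bmi1, 0.048 for Pcgf6 and -0.17 for Yaf2, and Hdac1/2 cKD against Sin3a KD was -0.033 for Suz12 and 0.048 for Gata4. With equal totals, Pcgf6 was 0.035 in Hdac1/2 cKD and 0.061 in Sin3a KD against NC embryos, and Usp16 was 0.0067 and Gab1 0.042 in Sin3a KD against NC embryos.

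With 1 library left out, Sin3a KD against NC ran from -0.018 to 0.42 for Ezh1, -0.038 to 0.14 for Eed, -0.0077 to 0.14 for Jarid2, -0.031 to 0.56 for Ring1, -0.096 to 0.42 for Bmi1, -0.087 to 0.0079 for Pcgf6, -0.54 to 0.14 for Pax6, -0.21 to 0.014 for Usp16, -0.19 to 0.079 for Gab1 and -0.12 to 0.21 for Yaf2. Hdac1/2 cKD against NC ran from -0.51 to 0.13 for Ring1, -0.0015 to 0.52 for Bmi1 and -0.0055 to 0.17 for Pcgf1. Hdac1/2 cKD against Sin3a KD ran from -0.033 to 0.086 for Suz12, -0.027 to 0.25 for Rnf2, -0.0095 to 0.23 for Bmi1, -0.084 to 0.0044 for Pcgf6 and -0.27 to 0.10 for Gata4. Differences in the log2 ratio of Ezh2 to Ezh1 ran from -0.20 to 0.35 (Hdac1/2 cKD against NC), -0.39 to 0.17 (Sin3a KD against NC) and -0.057 to 0.40 (Hdac1/2 cKD against Sin3a KD). Those of Rnf2 to Ring1 ran from 0.18 to 0.91, -0.28 to 0.21 and 0.16 to 0.89, and those of Bmi1 to Pcgf1 from -0.072 to 0.41, -0.34 to 0.14 and 0.16 to 0.37, in the same comparisons.

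Deviations from the group means correlated at -0.02 to 0.06 over 9 pairs of same-numbered libraries and at -0.04 to 0.03 over 18 other pairs. Such deviations sum to 0 within a group of 3 and the ranges overlap, so they cannot settle whether replicate numbers pair the libraries. With the replicate block the call of Eed in Hdac1/2 cKD against NC embryos had an adjusted p of 0.0640 and Rnf2 one of 0.0380. With 3 pools a group, the smallest detectable difference was not measured, and genes near the filter, such as Scml2 and Phf19, rest on few reads.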
